A study of Mus musculus with 12 samples.

Results

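Wild-type C2C12 myoblasts, an established line of mouse muscle precursors, were compared between RNA from purified polysomes and total cellular RNA. The comparison took the 6 wild-type samples of the 12 in the series: 3 of wild-type polysomal RNA and 3 of wild-type total RNA. It was chosen with earlier results of these data known. The other 6 samples, from cells with a knockout of Ddx27, were left out. Every one of the 13331 genes with values for the wild type entered, whatever its level. The labels give C2C12 as the cell line, wildtype as the genotype and myoblasts as the source for both groups, and name no drug, clone, day of culture or separate culture for any replicate. The p-values below therefore measure only the spread between these samples, which may be technical. The question the comparison addresses is which transcripts take a larger or a smaller share of polysomal RNA than of the RNA in the whole cell.

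A polysome is an mRNA with several ribosomes on it, and purifying polysomes by their size sets mRNAs under translation apart from untranslated mRNAs and from the single ribosome. Textbook cases of mRNAs that move between these pools are those with upstream reading frames, with a terminal oligopyrimidine tract or with an iron-responsive element. mRNAs of secreted and membrane proteins are translated by ribosomes bound to the endoplasmic reticulum, and many mRNAs of growth-induced regulators live only briefly. The values of replicates 1 to 3 sum to 964378, 970811 and 1007828 in total RNA and to 953917, 1215073 and 910271 in polysomal RNA. A higher value is therefore only roughly a larger share of the sequenced RNA, with polysomal replicate 2 furthest from the others. It is not a number of ribosomes.

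The deposited values are normalised read counts, each a whole number of reads times a factor of its library. The total RNA libraries held 18253045, 26347515 and 21518520 reads in replicates 1 to 3 and the polysomal ones 22986593, 15082167 and 21361037, so the limit that 0 reads allow, 3 reads, is 0.111 to 0.242 normalised read counts. Polysomal replicate 2 stood apart. Reads on 5 gene models known to collect ribosomal RNA made up 14.6% of it, against 5.92% and 0.675% of polysomal replicates 1 and 3 and 0.0536 to 0.0693% of total RNA. Between polysomal libraries the chi-square per degree of freedom over genes was 114 to 442, and between total libraries 3.98 to 21.7, so the replicates differed by more than counting error. Intervals and floors cover counting error only, since reads are not independent molecules.

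Markers of the labelled cell type were present. All 13 myoblast markers had values, and their summed level was 4015 to 5368 in total and 1393 to 1480 in polysomal RNA. Myotube markers, 12 of 14 with values, summed to 385 to 926 in total RNA, highest in replicate 3, and to 26.3 to 33.5 in polysomal RNA. In bulk RNA, fewer cells of a kind and less RNA per cell cannot be told apart. Fibroblast markers, 7 of 9 with values, summed to 2115 to 2589 and 792 to 1332. Leukocytes had 1 of 7 markers with values, Cd68, at 1.88 to 2.86 and 0.913 to 3.06, and adipocytes had 1 of 6, Pparg, at 18.4 to 25.7 and 24.2 to 28.6. The part of other cell types in the differences below was not tested. Of 3 RNAs known to stay in the nucleus, 2 were lower in polysomal RNA, and 1, 1 and 0 were without total replicate 1, 2 or 3. Neat1 was 1 of these 2, at −1.31, and stood at −0.21 with the trend on gene length removed that is described below. The other, Xist, read 412, 438 and 401 in total and 107, 27.3 and 90.3 in polysomal RNA, a change of −2.68. With that trend removed Xist was still lower, at −1.79, and Neat1 was not called. Malat1, at 178, 155 and 117 in total and 281, 133 and 100 in polysomal RNA, was not called.

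A gene is called higher or lower here where limma's linear model on log2 of the value plus 1 gave a Benjamini-Hochberg adjusted p under 0.05 over all 13331 genes. By this rule 1060 genes (7.95%) were higher and 1686 (12.6%) lower in polysomal RNA, 20.6% in either direction. Changes of at least 1 on the log2 scale made up 563 of the rises and 1126 of the falls. For 3018 genes (22.6%) all 3 polysomal values lay above all 3 total values, and for 3568 (26.8%) all lay below. The median change of all genes was 0.00. Leaving out 1 library moved the counts. The rises numbered 139, 167 and 112 and the falls 521, 559 and 491 with total replicate 1, 2 or 3 removed. They numbered 595 and 1229 with polysomal replicate 1 removed, and 2776 and 3047 with polysomal replicate 2 removed. At an unadjusted p under 0.05 limma gave 2254 rises and 2782 falls. All genes called without a total replicate were among those called with it, in the same direction.

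**Figure D1:**
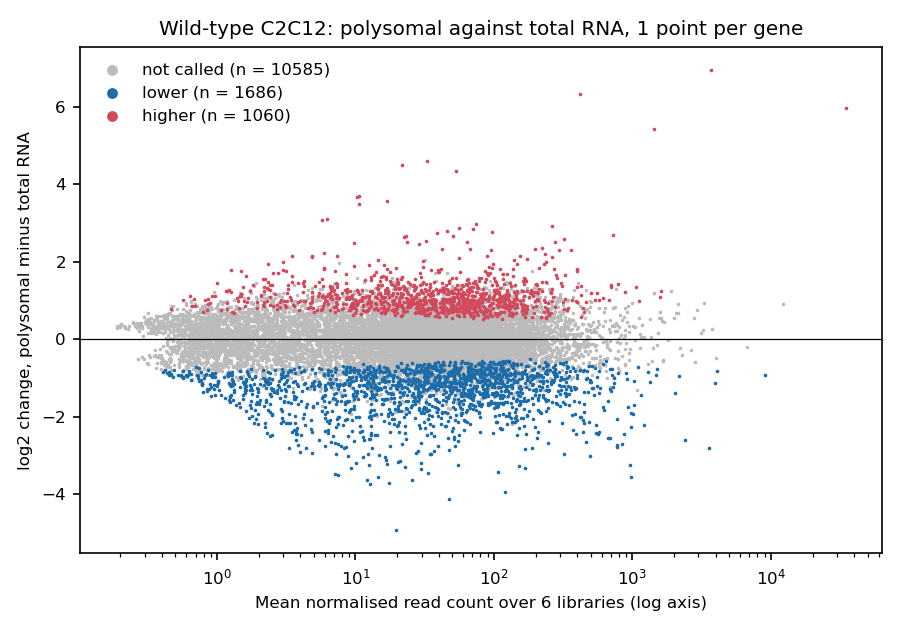
Each point is a gene, with its mean normalised read count over the 6 libraries on a log axis and its log2 change, polysomal minus total RNA, on the vertical axis. Blue points are the 1686 lower genes and red points the 1060 higher ones, and the 3 highest points belong to gene models that collect ribosomal RNA reads.

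The 4 largest rises of all were gene models known to collect ribosomal RNA reads. Reads under mmu-mir-6236 (ENSMUSG00000098973, GRCm38 chromosome 9, 110281287 to 110281409) went from 36.9, 42.1 and 33 in total replicates 1 to 3 to 5514, 15432 and 1212 in the polysomal ones, a rise of 6.94 ± 0.79 (SE) on the log2 scale. The miRNA that this gene model is named for is printed because its locus gave that rise, with its seed, bases 2 to 8, in capitals, from RefSeq on GRCm38.p6 (chr9:110281353-110281371, plus strand).
mmu-miR-6236: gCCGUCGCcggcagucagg
The libraries were standard ones of long RNA and do not show the mature miRNA. Gm23935, Gm26924 and Lars2, which encodes the mitochondrial leucyl-tRNA synthetase, rose by 6.32, 5.96 and 5.41. All 4 were highest in polysomal replicate 2 and lowest, among the polysomal libraries, in replicate 3.

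Among mRNAs the largest rises were those of linker histones, of Fos and Fosb, and of Lce1g. The linker histone gene Hist1h1d read 0.37, 0.921 and 0.422 in total RNA and 45, 72.4 and 11.5 in polysomal RNA. Its total level rested on 41 reads over 3 libraries, and those of Hist1h1a, Hist1h1b and Lce1g, a skin barrier gene, on 19, 19 and 15. The AP-1 gene Fos (ENSMUSG00000021250, chromosome 12, 85473890 to 85477274) read 3.75, 3.46 and 4.4 in total RNA and 94.4, 151 and 64.3 in polysomal RNA. The groups were far apart in every library, and the change of 4.34 ± 0.31 (adjusted p = 0.000902) had a smaller error than those of the histones and Lce1g. Fosb rose by 3.57 ± 0.30.

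The largest falls were muscle genes, with few polysomal reads behind several of them. Myh3, the embryonic myosin heavy chain, had 13 polysomal reads in all, Tnnc2, fast troponin C, had 18 and Ckm, muscle creatine kinase, had 7. Better covered was Igfbp5 (ENSMUSG00000026185, chromosome 1, 72858065 to 72874865), which encodes a secreted binding protein of insulin-like growth factors. It read 1596, 1605 and 2211 in total and 219, 84.3 and 186 in polysomal RNA. Every polysomal value lay far below every total value, at a change of −3.55 ± 0.36 (adjusted p = 0.00165).

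Gene length and direction went together in all 3 polysomal libraries, to different degrees. In the shortest 10% of genes, of 56 to 1015 bases, 156 of 1334 were higher and 22 lower. In the longest 10%, of 8266 bases and above, 20 of 1333 were higher and 365 lower. Median changes fell from 0.47 in the shortest to −0.61 in the longest of 10 such classes. Against mean total RNA they went from 0.36 to −0.37 in polysomal replicate 1, from 0.93 to −1.17 in replicate 2 and from 0.17 to −0.29 in replicate 3. The slope was steepest in replicate 2, the library with most ribosomal RNA reads, and shallowest in replicate 3, which held the fewest. The median gene length was 2423 bases among rises, 5182.5 among falls and 3492 over all. What set this trend was not tested. For named genes the change with the length trend removed is given below where the call changed or a called change moved over 1.5 times. Genes left uncalled both ways are given without it, although some moved as far, Kmt2d from −1.01 to 0.07 and Egfr from −0.93 to −0.27. With it removed, 1260 genes (9.45%) were higher and 1632 (12.2%) lower.

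**Figure D2:**
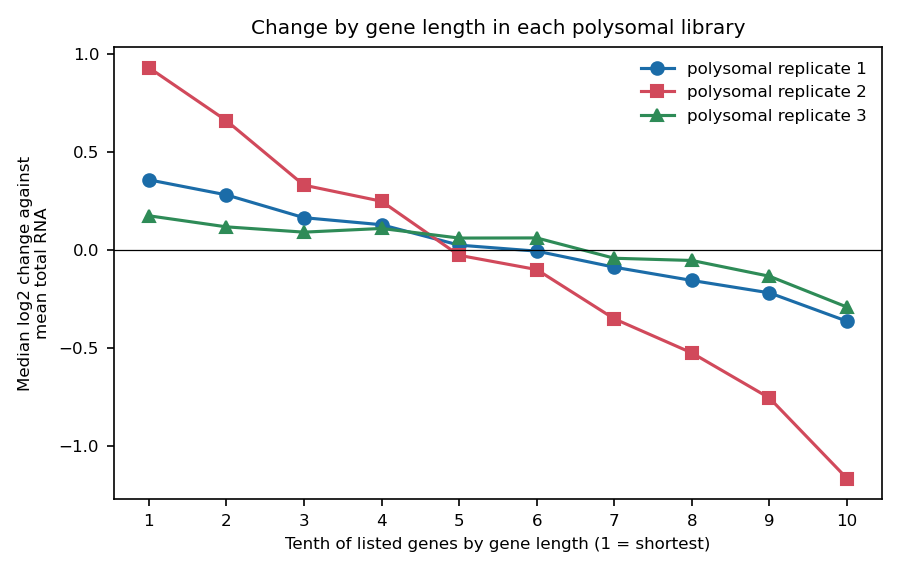
Points are the median log2 change of 10 classes of equal size over all listed genes, ordered from the shortest to the longest, in each polysomal library against mean total RNA. All 3 lines fall, from 0.93 to −1.17 in polysomal replicate 2 and from 0.17 to −0.29 in replicate 3.

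By level the medians differed less. Among the 10% of genes with the lowest mean level over the 6 libraries 1.87% were higher and 6.82% lower, and among the 10% with the highest level 9.23% and 19.9%. The median change of a level class stayed between −0.07 and 0.10.

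Gene groups were then described from 38 lists of pathways, complexes and markers, each by how many of its members were called and by its median, against 7.95% higher, 12.6% lower and a median of 0.00 over all genes. The lists, too, were chosen with earlier results of these data known. The lists at the low end held markers of myotubes, fibroblasts and myoblasts, nuclear-retained RNAs and giant ubiquitin ligases. They also held proteins of the cell surface, lysosome, cytoskeleton and muscle membrane. Myotube markers stood lowest, with 12 of 12 lower and a median of −3.49. Fibroblast markers were lower for 4 of 7 (median −1.58) and myoblast markers for 9 of 13 (median −1.08). The lists at the high end held short-lived mRNAs of regulators, general transcription factors, transcripts with a terminal oligopyrimidine tract and mRNAs with upstream reading frames. Where limma called 0 members higher below, 0 were higher also at an unadjusted p under 0.05, by edgeR and by DESeq2, with 4 exceptions. In that order these were 1, 0 and 1 for semaphorins and their receptors, 2, 0 and 0 for tubulins, 1, 0 and 0 for giant ubiquitin ligases and 1, 1 and 2 for selenoproteins. Where it called 0 lower, the counts were 3, 0 and 3 for endoplasmic reticulum import and 0 each for polyamine genes.

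**Figure D3:**
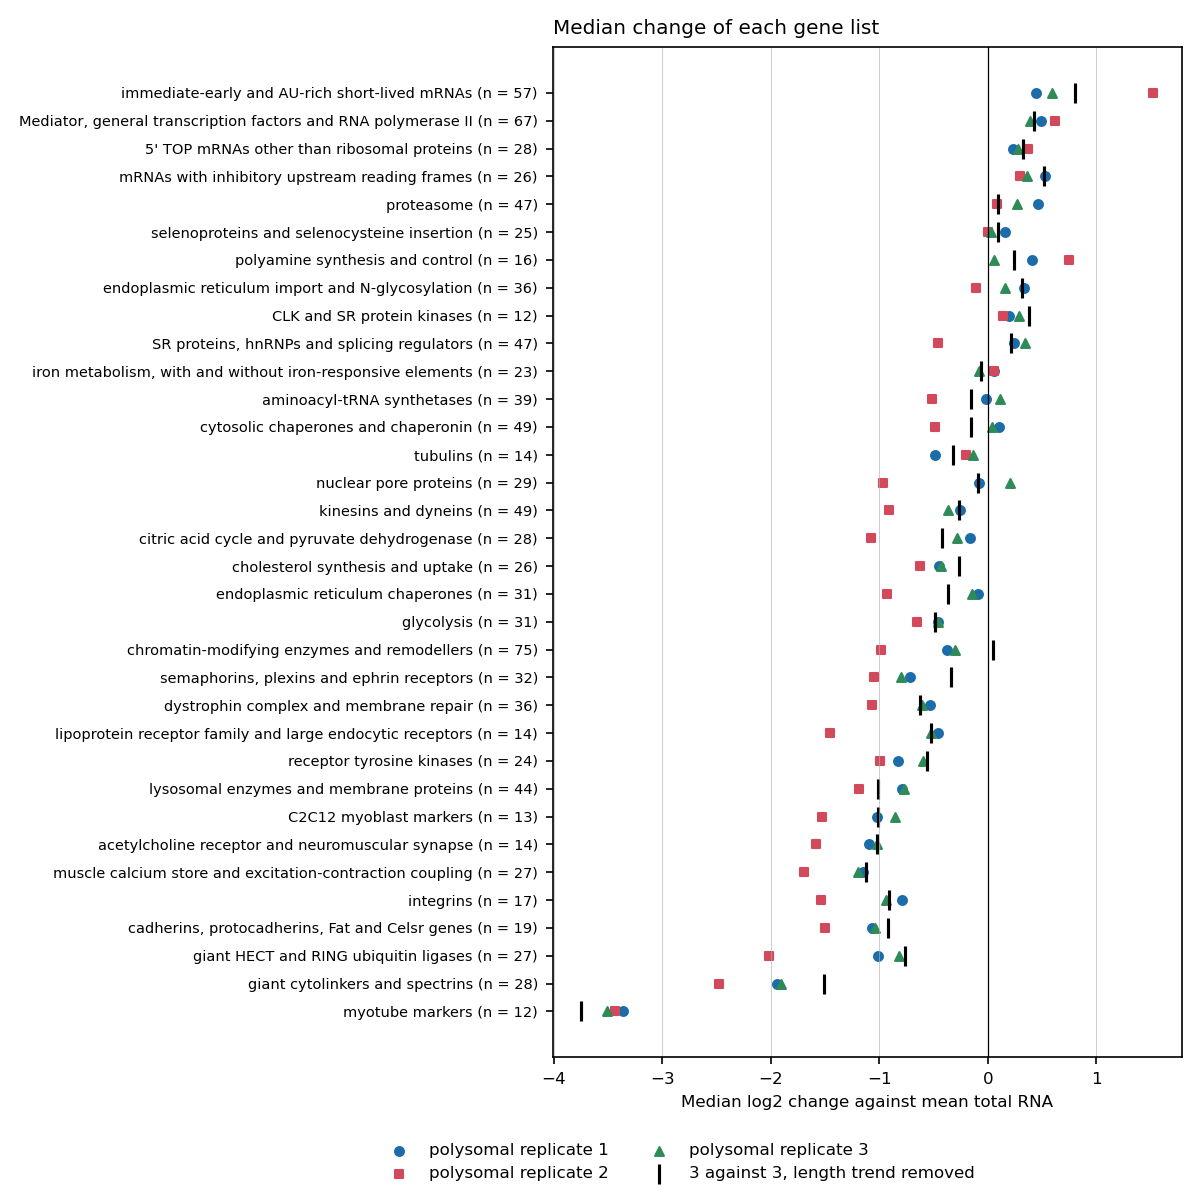
Symbols show the median log2 change of each list in polysomal replicates 1 to 3 against mean total RNA, and black bars show the 3 against 3 median with the length trend removed, n being the members with values. The bar of the short-lived mRNAs is the highest and that of the myotube markers the lowest, polysomal replicate 2 lies apart from the other libraries in many lists, and the chromatin list's bar lies at 0.05, on the other side of 0 from its symbols.

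The machinery that brings proteins into the endoplasmic reticulum was mostly uncalled. Of 36 genes of import and N-glycosylation, 4 (11.1%) were higher, against 7.95% of all genes, and 0 lower, with a median of 0.23. The 4 were Srp9 and Srp19, subunits of the signal recognition particle, Sec11c of signal peptidase, and Ostc of the oligosaccharyltransferase. Srp9 read 28.3, 24.3 and 20 in total RNA and 68.5, 67.1 and 44.1 in polysomal RNA, a change of 1.26 ± 0.24 (adjusted p = 0.012). Srp19 rose by 1.23 and Sec11c by 0.92, while Ostc, at 0.80, did not pass with the length trend removed (0.42, adjusted p = 0.0968). Sec61a1, the pore subunit of the translocon, stood at −0.34 (adjusted p = 0.158). The list's median was −0.11 in polysomal replicate 2 and 0.33 and 0.15 in the other polysomal libraries. Leaving out total replicate 1, 2 or 3 gave 1, 0 and 0 higher genes, and leaving out polysomal replicate 1, 2 or 3 gave 2, 15 and 7.

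Of 31 endoplasmic reticulum chaperone genes 5 were lower (16.1%, against 12.6% of all genes) and 0 higher. Their median was −0.47, and −0.09, −0.93 and −0.15 in polysomal replicates 1 to 3. Uggt1, the glucosyltransferase that tests glycoprotein folding, read 162, 171 and 166 in total and 62.1, 37.4 and 63.8 in polysomal RNA and fell by 1.64 ± 0.23 (adjusted p = 0.00493), or by 1.09 with the length trend removed. Hyou1 fell by 1.01, Pdia4 by 0.93 and the lectin chaperone calreticulin (Calr) by 0.88. Hspa5, the chaperone BiP, read 1005, 1032 and 935 against 891, 304 and 653, which did not pass at −0.82 ± 0.37 (adjusted p = 0.146). The list had 1 lower gene without any of the 3 total replicates in turn and 10 without polysomal replicate 2.

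Lysosomal genes were lower for 24 of 44 members (54.5%) and higher for 0, with a median of −0.97. The medians in polysomal replicates 1 to 3 were −0.79, −1.19 and −0.77, and the list's median length of 3421 bases was close to that of all genes. With the length trend removed the median was −1.01, and 29 were lower. Prosaposin (Psap, ENSMUSG00000004207, chromosome 10, 60277628 to 60302600), the precursor of activators of sphingolipid breakdown, read 1524, 1536 and 1709 in total RNA. In polysomal RNA it read 579, 266 and 475, a fall of 1.92 ± 0.29 (adjusted p = 0.00587). Enzymes of glycan and lipid breakdown fell with it. The mannosidase Manba fell by 1.83, the glucosidase Gaa by 1.70 and the hexosaminidase Hexa by 1.62. The protease cathepsin D (Ctsd) read 744, 728 and 848 in total and 357, 313 and 342 in polysomal RNA, and the membrane protein Lamp1 read 954, 948 and 1154 against 570, 455 and 653. Neither gene's groups overlapped, and the changes were −1.19 ± 0.17 and −0.87 ± 0.20. In all, 38 of the 44 had every polysomal value below every total value, against 26.8% of all genes. The count of lower genes was 11, 11 and 10 without total replicate 1, 2 or 3 and 38 without polysomal replicate 2.

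Receptors and adhesion molecules of the cell surface had lower members in each of 5 families and 1 higher member in all. Integrins, the receptors that couple the matrix to actin, were lower for 10 of 17 and higher for 0, with a median of −1.25. Itga7, the muscle laminin receptor subunit, read 634, 623 and 745 in total and 152, 192 and 152 in polysomal RNA and fell by 2.01 ± 0.18 (adjusted p = 0.0012). Itgav read 135, 141 and 119 against 57.6, 18.4 and 68.1, with polysomal replicate 2 lowest, at −1.63 ± 0.45 (adjusted p = 0.039). Itgb1, the common beta subunit, read 975, 993 and 810 against 640, 155 and 587. It did not pass, at −1.25 ± 0.50 (adjusted p = 0.114), although all its polysomal values lay below the total ones. Itga10 and Itga11 fell by 2.28 and 2.15 from levels under 10. Without total replicate 1, 2 or 3 there were 5 lower integrins each, and without polysomal replicate 2 there were 15.

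Cadherins and their relatives, which join cells to each other, were lower for 14 of 19 and higher for 0 (median −1.34, and −0.92 with the length trend removed). The giant atypical cadherin Fat1 read 275, 297 and 247 in total RNA and 64, 40.2 and 71.8 in polysomal RNA, a change of −2.24 ± 0.24 (adjusted p = 0.00203). Fat4 fell by 2.04, Cdh13 by 1.82 and the protocadherin Pcdhb17 by 1.74. With the length trend removed Fat1 fell by 1.44, Fat4 by 1.10 and Cdh13 by 1.18. The muscle cadherin Cdh15 read 391, 395 and 471 against 195, 220 and 201 and fell by 1.02 ± 0.17. N-cadherin (Cdh2) was just outside, at −1.36 ± 0.40 (adjusted p = 0.0503), and inside with the length trend removed (−0.83, adjusted p = 0.0421). The number of lower genes was 9, 9 and 8 without total replicate 1, 2 or 3.

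Semaphorins, plexins and ephrin receptors, which guide cell and axon movement, were lower for 16 of 32 and higher for 0, with a median of −0.71, or −0.34 with the length trend removed. Plxna2 read 82.2, 86.8 and 86.5 in total and 22.9, 12.7 and 24.6 in polysomal RNA (−2.08 ± 0.26, adjusted p = 0.00318), a change of −1.26 with the length trend removed. The secreted Sema3d and Sema3c fell by 3.03 and 2.62, and Sema5a by 1.92. Sema3d was at 0.0806 in polysomal replicate 2, under the floor of that library, and at 6.68 and 4.64 in the other polysomal libraries. The list had 5, 6 and 5 lower genes without total replicate 1, 2 or 3, 10 without polysomal replicate 1 and 24 without polysomal replicate 2.

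Large endocytic receptors were lower for 6 of 14 and higher for 0 (median −0.87, or −0.53 with the length trend removed). Igf2r (ENSMUSG00000023830, chromosome 17, 12682406 to 12769706), which carries lysosomal enzymes and insulin-like growth factor 2, read 65.8, 64.4 and 65.3 in total and 11.5, 4.03 and 10.8 in polysomal RNA. It fell by 2.87 ± 0.35 (adjusted p = 0.00293). Lrp1 (ENSMUSG00000040249, chromosome 10, 127538157 to 127621148), a scavenger receptor, read 1480, 1494 and 1394 against 226, 201 and 250, a tight pair of groups at −2.69 ± 0.17 (adjusted p = 0.000762), or −1.76 with the length trend removed. Lrp4 fell by 2.52 and the collagen receptor Mrc2 by 2.02. M6pr, the small mannose-6-phosphate receptor, stood at 0.10 and was not called. Total replicate 1 or 3 left out gave 3 lower genes, and total replicate 2 left out gave 4.

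Receptor tyrosine kinases had 11 of 24 lower and 1 higher, with a median of −0.91, or −0.56 with the length trend removed. Erbb3, a neuregulin receptor, read 12.3, 12 and 14.7 in total and 1.78, 0.564 and 1.41 in polysomal RNA and fell by 2.67 ± 0.26 (adjusted p = 0.00158). The insulin receptor (Insr) fell by 1.48, Pdgfra by 1.58, Flt1 by 1.66 and Fgfr1 by 0.90. With the length trend removed Insr and Flt1 stood at −0.94 and −1.01, and Fgfr1 was no longer called (−0.45, adjusted p = 0.156). Ret, the receptor of the GDNF family, was the exception. It read 2.59, 1.92 and 2.53 in total RNA and 8.22, 6.45 and 12.5 in polysomal RNA, higher in every polysomal library at 1.55 ± 0.27 (adjusted p = 0.00859), from 155 total reads. Its level was low. Egfr and Met stood at −0.93 (adjusted p = 0.0566) and −1.13 (adjusted p = 0.118). Only 2 of these kinases were lower without any given total replicate, and 15 were lower without polysomal replicate 2.

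The very large proteins that cross-link the cytoskeleton and tie it to membranes were nearly all lower. Of 28 giant cytolinkers and spectrins 25 (89.3%) were lower and 0 higher. Their median was −2.11, and −1.94, −2.48 and −1.91 in polysomal replicates 1 to 3. These genes are long, with a median of 9940.5 bases, past the 8266 bases where the longest 10% of genes begin. Those had a median change of −0.61, and with the length trend removed the list's median was −1.51 with 21 lower. Nestin (Nes, ENSMUSG00000004891, chromosome 3, 87971093 to 87980451), the intermediate filament protein of precursor cells, read 1774, 1762 and 1686 in total RNA. In polysomal RNA it read 248, 159 and 154, a fall of 3.25 ± 0.22 (adjusted p = 0.000797), the steepest of the list. The spectrin Sptbn1 (ENSMUSG00000020315, chromosome 11, 30099395 to 30268384) read 574, 571 and 554 against 96.7, 36.7 and 103 and fell by 2.96 ± 0.37.

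Filamin A (Flna, ENSMUSG00000031328, chromosome X, 74223461 to 74249854), which cross-links actin, read 4140, 4101 and 4111 in total and 530, 724 and 816 in polysomal RNA (−2.60 ± 0.21, adjusted p = 0.000957). The gene of talin (Tln1), which links integrins to actin, read 1135, 1155 and 1235 against 189, 197 and 214. The scaffold Ahnak2 fell by 2.86 and plectin (Plec) by 2.45. Plectin's 3 polysomal values, 269, 267 and 262, agreed closely, and its change with the length trend removed was −1.30 (adjusted p = 0.0425). The list's lower count was 18 without any given total replicate and 26 without polysomal replicate 2.

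Microtubule motors were mixed by subunit. Of 49 kinesin, dynein and dynactin genes 10 were lower and 2 higher (median −0.42). The dynein heavy chain Dync1h1 (ENSMUSG00000018707, chromosome 12, 110601395 to 110666944) read 851, 852 and 931 in total and 117, 92.6 and 117 in polysomal RNA and fell by 3.01 ± 0.17 (adjusted p = 0.000762). The intermediate chain Dync1i1 fell by 2.70 ± 0.23. The light chain Dynll2 read 115, 111 and 94.3 against 225, 260 and 140 and rose by 0.92 ± 0.25 (adjusted p = 0.0401), and the light chain Dynlt3 rose by 1.03. The deposited gene lengths are 15582 bases for the heavy chain and 3235 and 2624 for the light chains, and with the length trend removed the changes were −2.17, 0.90 and 0.92. The kinesin heavy chain Kif5b read 156, 164 and 126 in total and 126, 17.5 and 162 in polysomal RNA. Only polysomal replicate 2 was low, and the gene did not pass. Lower motor genes numbered 3, 4 and 4 without total replicate 1, 2 or 3, with 0 higher, and without polysomal replicate 2 there were 24 lower and 6 higher. No motor gene was higher without polysomal replicate 1.

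Tubulins, the short building blocks of the same filaments, had 3 of 14 lower and 0 higher. The 3 were Tubb3, Tubb2b and Tuba1a, at −1.24 ± 0.19, −1.06 and −1.01. Tubb3 read 215, 225 and 274 in total and 94.9, 119 and 88.1 in polysomal RNA. Tubb5 was not called at −0.28 (adjusted p = 0.438), and its polysomal values of 1702, 2886 and 2656 overlapped the total ones of 2608, 2647 and 3412. Without total replicate 1, 2 or 3 the lower tubulins numbered 1, 1 and 2, and without polysomal replicate 2 they numbered 5.

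**Figure D4:**
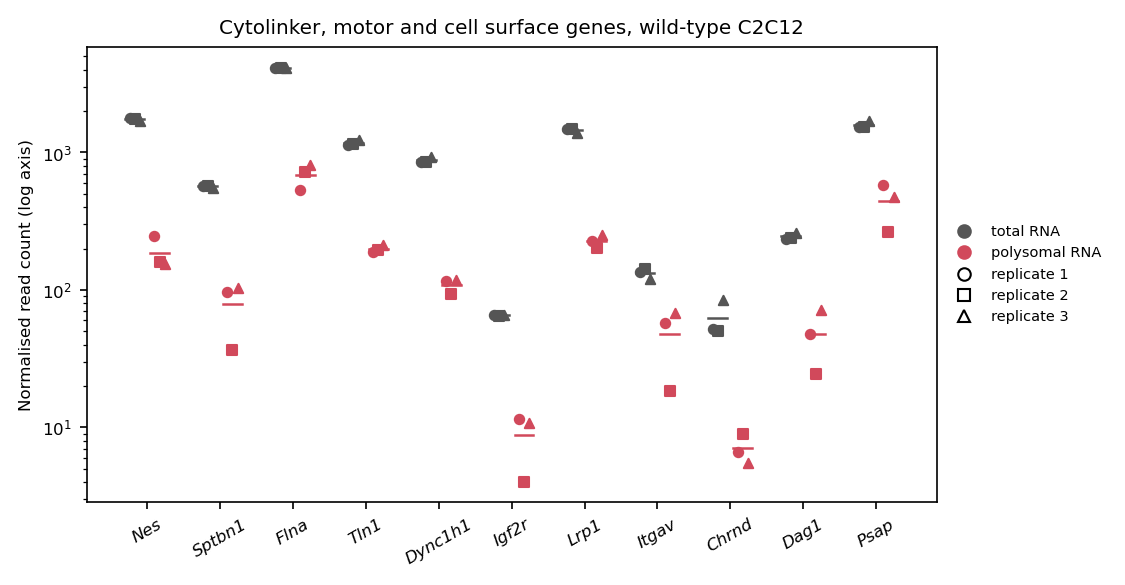
Points are normalised read counts on a log axis of 11 cytoskeletal, motor, receptor and lysosomal genes in the 3 total (grey) and 3 polysomal (red) libraries, with a bar at each group's mean. The groups do not overlap for any of the 11 genes, and polysomal replicate 2 is the lowest polysomal point for Sptbn1, Dync1h1, Igf2r, Lrp1, Itgav, Dag1 and Psap. These genes were picked from the called ones, Itgav and Tln1 after their values were seen, so the separation does not describe their lists.

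Called genes of the muscle membrane were lower, apart from Orai2, whether they belong to the synapse, the dystrophin complex or the calcium store. At the synapse, where acetylcholine receptors cluster under agrin and MuSK, 10 of 14 genes were lower and 0 higher (median −1.12, and −1.02 with the length trend removed). The receptor subunit Chrnd (ENSMUSG00000026251, chromosome 1, 87190597 to 87200070) read 51.6, 50.3 and 85 in total and 6.6, 8.94 and 5.54 in polysomal RNA, a fall of 2.96 ± 0.27 (adjusted p = 0.00136). Total replicate 3 was the highest library for it, as for the myotube markers. The embryonic subunit Chrng fell by 3.32 ± 0.26 from 13.7, 15.3 and 24.1, and Chrna1 by 1.43 ± 0.22 from 672, 714 and 913. Fewer passed without total replicate 1, 2 or 3, at 5, 6 and 5.

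The dystrophin-linked and membrane repair list had 18 of 36 lower and 0 higher (median −0.79, and −0.63 with the length trend removed). Dystroglycan (Dag1, ENSMUSG00000039952, chromosome 9, 108204861 to 108263977), the laminin receptor at the core of the complex, read 237, 241 and 261 in total and 48.1, 24.2 and 72 in polysomal RNA (−2.46 ± 0.36, adjusted p = 0.00519). Utrophin (Utrn), which can take the place of dystrophin, fell by 2.42 and myoferlin (Myof), a membrane fusion protein, by 2.40. Myoferlin read 724, 727 and 753 against 162, 106 and 156. Of 3 glycosyltransferases of dystroglycan, chosen after their values were seen, Pomt2 was lower at −0.80, while Pomt1 stood at 0.04 and Pomgnt1 at 0.15, uncalled. The list's lower count was 8, 8 and 7 without total replicate 1, 2 or 3.

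Calcium store and excitation-contraction genes were lower for 14 of 27 and higher for 1 (median −1.23, and −1.13 with the length trend removed). The pump Atp2a1 of fast fibres read 19.4, 17.1 and 33.8 in total and 1.54, 0.645 and 0.597 in polysomal RNA and fell by 3.64 ± 0.32 (adjusted p = 0.00108). The broadly used pump Atp2a2 read 476, 478 and 449 against 237, 118 and 247 and fell by 1.29 ± 0.29. The release channel Ryr1 read 14.5, 13.6 and 18.9 against 2.86, 0.967 and 2.26 and was called lower, also with the length trend removed (−1.66), and Itpr3 stood at −2.08. Cacna1s, the voltage sensor of muscle, had 307 reads in total RNA and 0 in polysomal RNA, so it was at least 27.7-fold lower against a floor of 3 reads per library. The higher gene was Orai2, a subunit of store-operated channels, at 0.99 ± 0.23 (adjusted p = 0.0219), with 18.3, 16.7 and 13.7 in total and 27.3, 42 and 31.3 in polysomal RNA. The lower count was 10 without any given total replicate.

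Genes of nuclear proteins held both directions. Of 67 genes of Mediator, the general transcription factors and RNA polymerase II, which together start transcription of mRNA genes, 15 were higher and 3 lower, with a median of 0.56. The medians in polysomal replicates 1 to 3 were all above 0, and 36 genes had every polysomal value above every total value. Med21 read 37.5, 43.4 and 35.3 in total and 88.3, 115 and 76.3 in polysomal RNA (1.23 ± 0.21, adjusted p = 0.00813). Gtf2h1, a subunit of TFIIH, read 50.9, 56.5 and 43.1 against 118, 99.4 and 115 and rose by 1.13 ± 0.18. Med10 and Med26 rose by 1.11 each, and Med10 by 0.68 with the length trend removed. The 3 lower genes were the large subunits Med12, Polr2a and Med23, at −1.95 ± 0.28, −0.82 ± 0.21 and −0.74 ± 0.22. Med12, of the kinase module, read 83.9, 86 and 103 against 25.4, 14.6 and 31.4. Med21 is 2170 and Med12 7623 bases long, and with the length trend removed they stood at 1.06 and −1.54, while the list's median was 0.42. Polr2a and Med23 lost their calls that way, at −0.38 (adjusted p = 0.392) and −0.39 (adjusted p = 0.0916). Higher genes of the list numbered 1, 3 and 0 without total replicate 1, 2 or 3, 8 without polysomal replicate 1 and 37 without polysomal replicate 2.

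Chromatin-modifying enzymes and remodellers were lower for 19 of 75 and higher for 1, with a median of −0.60. These genes are long, with a median of 8686 bases, and the median changed sign to 0.05 once the length trend was removed, with 15 lower and 5 higher. Trrap, a scaffold of acetyltransferase complexes, read 217, 220 and 237 in total and 67.7, 25.2 and 73.6 in polysomal RNA (−2.14 ± 0.38, adjusted p = 0.00985), or −1.32 with the length trend removed. The remodeller Chd4 fell by 1.61 ± 0.24 and Smarcc2 by 1.46 ± 0.18. The higher gene was Brd2, a reader of acetylated histones, which read 397, 388 and 386 in total and 683, 1060 and 762 in polysomal RNA, a rise of 1.07 ± 0.21 (adjusted p = 0.0127). Ezh2 stood at 0.35 (adjusted p = 0.328) and Kmt2d at −1.01 (adjusted p = 0.088). The lower count was 9, 10 and 8 without total replicate 1, 2 or 3 and 37 without polysomal replicate 2.

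SR proteins, hnRNPs and other splicing regulators had 9 of 47 higher and 3 lower. Their median of −0.02 became 0.00, 0.07 and 0.03 under median scaling, quantile normalization and without the ribosomal RNA gene models, and 0.21 with the length trend removed, so the list had no direction that held. Srsf3 read 86.4, 85.9 and 51.7 in total and 234, 177 and 164 in polysomal RNA and rose by 1.37 ± 0.26 (adjusted p = 0.0115). Hnrnpab read 743, 761 and 729 against 1413, 1515 and 1533 and was called higher (adjusted p = 0.00718). The 3 lower genes were Son and Srrm2, long scaffolds of nuclear speckles, and Celf2. Son read 260, 262 and 249 against 102, 58.4 and 99.4 (adjusted p = 0.00572), and Srrm2 fell by 1.23. With the length trend removed they stood at −0.86 and −0.75, and Celf2 was no longer called (−0.30, adjusted p = 0.177). Srsf1 was not called (0.10, adjusted p = 0.875): polysomal replicate 2 read 119 and the others 353 and 320, against 186 to 245 in total RNA. Of the kinases that phosphorylate SR proteins Clk4, Clk1 and Dyrk3 rose by 1.47, 1.12 and 1.26. Clk1 read 40.8, 46 and 43.8 against 105, 84.8 and 97.9. Srpk3, a muscle SR kinase, had 64 reads in total and 0 in polysomal RNA and was at least 5.66-fold lower. Without polysomal replicate 1 or 2, 3 and 21 splicing regulators were higher, and without total replicate 1, 2 or 3, 1, 1 and 0.

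Nuclear pore genes had 5 of 29 lower and 1 higher (median −0.31). Ranbp2, the giant filament protein, read 185, 204 and 150 in total and 70.4, 9.26 and 64.1 in polysomal RNA (−2.30 ± 0.68, adjusted p = 0.0495). Nup98 fell by 1.66, Nup205 by 1.35 and Nup188 by 1.08, and Nup35 rose by 0.86. The list's median was 0.20 in polysomal replicate 3 and −0.97 in replicate 2, so single libraries disagreed on its side. Only 1 was lower without any given total replicate, 3 were lower without polysomal replicate 1, and without polysomal replicate 2 there were 11 lower and 7 higher.

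Among genes that break down proteins, most proteasome genes were uncalled and most giant ubiquitin ligases were lower. Proteasome genes had 5 of 47 higher (10.6%, against 7.95% of all genes) and 1 lower (2.13%, against 12.6%). Their median was 0.30, and 0.09 with the length trend removed. The higher ones included the assembly factors Pomp, Psmg3 and Psmg1, at 1.30, 1.28 and 0.98. Pomp read 125, 128 and 102 in total and 337, 406 and 179 in polysomal RNA, and rose by 0.83 with the length trend removed. The large scaffold subunit Psmd1 read 304, 307 and 308 against 164, 89.4 and 182 and fell by 1.13 ± 0.27. Of giant ubiquitin ligases, 15 of 27 were lower and 0 higher (median −1.41, and −0.76 with the length trend removed). Huwe1 read 403, 428 and 421 in total and 161, 81.4 and 183 in polysomal RNA (−1.63 ± 0.30, adjusted p = 0.0109), and Rnf213, Herc2 and Birc6 fell by 2.57, 2.48 and 2.20. With the length trend removed these 4 stood at −0.56, −1.68, −1.65 and −1.02. Zfp598, a ligase that marks collided ribosomes, stood at 0.50 and was not called. The ligase count was 4, 4 and 3 without total replicate 1, 2 or 3, and no proteasome gene was called without any given total replicate. Leaving out polysomal replicate 1, 2 or 3 gave 1, 23 and 9 higher proteasome genes.

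The list of cytosolic chaperones and chaperonins, which is not limited to the cytosol, had 6 of 49 higher and 3 lower (median −0.10). Hspe1, the mitochondrial cochaperonin, read 49.9, 41.2 and 28.5 in total and 160, 173 and 78.2 in polysomal RNA and rose by 1.71 ± 0.34 (adjusted p = 0.0147). Prefoldin subunits rose, Pfdn1 by 1.18, Pfdn4 by 0.92 and H2-Ke2, another prefoldin subunit, by 1.32. Pfdn4 was at 0.80 (adjusted p = 0.0514) with the length trend removed. Hspa2, Dnajb5 and Bag3 fell by 1.39, 1.13 and 0.74, while Hspa8 (−0.93, adjusted p = 0.127) and Hsp90ab1 (−0.49, adjusted p = 0.135) did not pass. Aminoacyl-tRNA synthetases, which charge tRNAs, had 7 of 39 lower and 2 higher (median −0.08). The bifunctional Eprs read 358, 355 and 321 against 170, 68.8 and 138 and fell by 1.54 ± 0.32 (adjusted p = 0.0162). Iars, Lars and Aars fell by 0.94, 0.93 and 0.78, and Yars2 and the complex member Eef1e1 rose by 0.90 and 1.01. With the length trend removed Aars stood at −0.32 (adjusted p = 0.356) and Eef1e1 at 0.63 (adjusted p = 0.0679). No synthetase was called without total replicate 1, 2 or 3, and 1, 0 and 0 chaperones were higher. Without polysomal replicate 1, 2 chaperones were higher and 4 synthetases lower, and without polysomal replicate 2, 18 chaperones were higher.

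mRNAs known for control at the ribosome followed no common direction. Among mRNAs with inhibitory upstream reading frames, 8 of 26 were higher and 1 lower (median 0.34, and 0.52 with the length trend removed). Some of these frames hold ribosomes back until the initiation factor eIF2 is phosphorylated in a stress response. Atf4 (ENSMUSG00000042406, chromosome 15, 80255184 to 80257545), the central transcription factor of that response, read 551, 578 and 562 in total and 1324, 2355 and 963 in polysomal RNA, a rise of 1.35 ± 0.31 (adjusted p = 0.0233). Ddit3, which encodes the factor CHOP, read 28.8, 28.3 and 24.1 against 107, 303 and 77.8 and rose by 2.29 ± 0.45 (adjusted p = 0.014). Both genes were highest in polysomal replicate 2, and the groups did not overlap. Gadd45g rose by 2.51 and Ppp1r15a, a phosphatase subunit that ends the response, by 1.42. Mdm2 rose by 1.05, at 84.2, 84.3 and 69.6 against 174, 146 and 174. The lower gene was Cebpa, at −1.09 ± 0.26 (adjusted p = 0.0247). The higher count was 1, 2 and 1 without total replicate 1, 2 or 3 and 14 without polysomal replicate 2.

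Of 28 transcripts other than ribosomal protein mRNAs that carry a terminal oligopyrimidine tract, 6 were higher and 2 lower (median 0.39). The nucleolar chaperone Npm1 read 171, 183 and 143 in total and 600, 255 and 521 in polysomal RNA (1.38 ± 0.32, adjusted p = 0.0239). The non-coding RNA Gas5 and the mRNAs of Naca and Eif4a2 rose by 1.58, 1.23 and 1.19. Elongation factor 2 (Eef2) read 5134, 4925 and 5632 in total and 2738, 3236 and 2879 in polysomal RNA and fell by 0.83 ± 0.19 (adjusted p = 0.0215), and vimentin (Vim) fell by 0.93. Eef1a1, Pabpc1 and Tpt1 were not called, at −0.40, 0.17 and 0.45. By these members the list held both directions among highly read genes. None was called without total replicate 1, 2 or 3, and 2 and 12 were higher without polysomal replicate 1 or 2.

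Polyamine genes, in which ribosome frameshifting on antizyme mRNA sets the synthesis rate, had 3 of 16 higher and 0 lower. Srm, spermidine synthase, read 120, 122 and 160 in total and 254, 714 and 346 in polysomal RNA (1.57 ± 0.36, adjusted p = 0.023). Ornithine decarboxylase (Odc1) read 45.3, 46.8 and 48.5 against 76.4, 89.9 and 107 and rose by 0.93 ± 0.18, and Dhps, which uses spermidine to modify eIF5A, rose by 0.87. The antizyme Oaz1 stood at 0.65 (adjusted p = 0.233) and the antizyme inhibitor Azin1 at −0.43 (adjusted p = 0.515), where polysomal replicate 2 read 91.2 and the others 303 and 336. None of the list was called without total replicate 1, 2 or 3, and 5 were higher without polysomal replicate 2.

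Of 23 genes of iron metabolism, some with and some without an iron-responsive element, 2 were higher and 5 lower. Ferritin heavy chain (Fth1) read 2483, 2524 and 3141 in total and 2198, 6826 and 2110 in polysomal RNA, and only polysomal replicate 2 lay above total RNA (0.23 ± 0.44, adjusted p = 0.723). The transferrin receptor Tfrc read 90.4, 92.9 and 62.8 against 91.3, 18.3 and 96.6, with replicate 2 on the low side (−0.55 ± 0.59, adjusted p = 0.51). Hmox1 and Glrx5 rose by 1.11 and 1.04 (Glrx5 by 0.63 with the length trend removed), and Ncoa4, Steap3, Aco1 and Alas1 fell by 1.46, 1.36, 1.07 and 1.04. No iron gene was higher, and 1, 2 and 1 were lower, without total replicate 1, 2 or 3. Selenoprotein genes, whose mRNAs recode a stop codon, had 1 of 25 lower and 0 higher. This was the secreted Sepp1, at −1.18 ± 0.26 (adjusted p = 0.0197), while Gpx4 (−0.09) and Txnrd1 (−0.13) did not pass. None passed without a total replicate, and 4 were higher and 3 lower without polysomal replicate 2.

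Immediate-early and other AU-rich, short-lived mRNAs, which cells make within minutes of a growth signal and destroy soon after, were the list with the highest median, 0.93. Of 57 genes 28 (49.1%) were higher and 3 lower, and 33 had every polysomal value above every total value, against 22.6% of all genes. Polysomal replicate 2, the library with most ribosomal RNA reads, had the highest median at 1.52, beside 0.44 in replicate 1 and 0.60 in replicate 3. Their median length was 2736 bases, and the median with the length trend removed was 0.80, with 29 higher. Without total replicate 1, 2 or 3, 15, 15 and 12 were higher, and without polysomal replicate 1 or 2, 26 and 33. Fos and Fosb, described above, are kept apart from this list.

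Of the transcription factors in it, Egr1 (ENSMUSG00000038418, chromosome 18, 34861207 to 34864956) read 177, 186 and 201 in total and 987, 1645 and 1118 in polysomal RNA, a rise of 2.69 ± 0.22 (adjusted p = 0.00105). The orphan nuclear receptor Nr4a1 (ENSMUSG00000023034, chromosome 15, 101253902 to 101274795) read 11.1, 9.65 and 12 against 40.8, 170 and 59.6 (2.67 ± 0.47, adjusted p = 0.00951). Ier2 read 76.9, 70.6 and 81.4 in total and 251, 660 and 265 in polysomal RNA, and Klf10 read 50.4, 53.9 and 58.8 against 161, 292 and 307. The groups were apart for all 4 genes, which were picked from the called ones, Ier2 and Klf10 after their values were seen. Polysomal replicate 2 was the highest library for all but Klf10. Myc rose by 1.46, Junb by 1.47 and Jun by 0.77. Id1 (ENSMUSG00000042745, chromosome 2, 152736251 to 152737410), which blocks the myogenic factors from binding DNA, read 93.5, 87.4 and 64.7 in total and 367, 980 and 320 in polysomal RNA (2.57 ± 0.41, adjusted p = 0.00704), and Id2 and Id3 rose by 1.80 and 1.77. Mcl1 was not called, at 0.15 (adjusted p = 0.623).

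Feedback inhibitors went both ways. The phosphatases that switch off MAP kinases rose for Dusp2, by 2.84 ± 0.51, Dusp1, by 2.11 ± 0.33, and Dusp5, by 1.01 ± 0.27, and fell for Dusp4, by 2.03 ± 0.22. Dusp1 read 88.4, 87.4 and 97.8 in total and 251, 660 and 380 in polysomal RNA. Dusp4 read 224, 197 and 213 against 54.4, 38.3 and 63.8, so no library overlapped in either direction. Dusp6 stood at 0.20 and was not called. The AU-rich element binding protein Zfp36, which speeds the decay of such mRNAs, read 32.4, 34.5 and 43.2 in total and 97.4, 220 and 92 in polysomal RNA (1.76 ± 0.34, adjusted p = 0.0129). Its relative Zfp36l1 fell by 1.22 ± 0.20, from 45.9, 48.3 and 54.9 to 24.5, 17.2 and 21.1. The deubiquitinase Tnfaip3 fell by 1.27, or by 0.79 with the length trend removed. The chemokine gene Ccl7 (ENSMUSG00000035373, chromosome 11, 82045712 to 82047525) read 9.14, 8.51 and 8.9 in total and 60, 59.9 and 47.6 in polysomal RNA, and its error was among the smallest at 2.52 ± 0.18 (adjusted p = 0.000902).

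**Figure D5:**
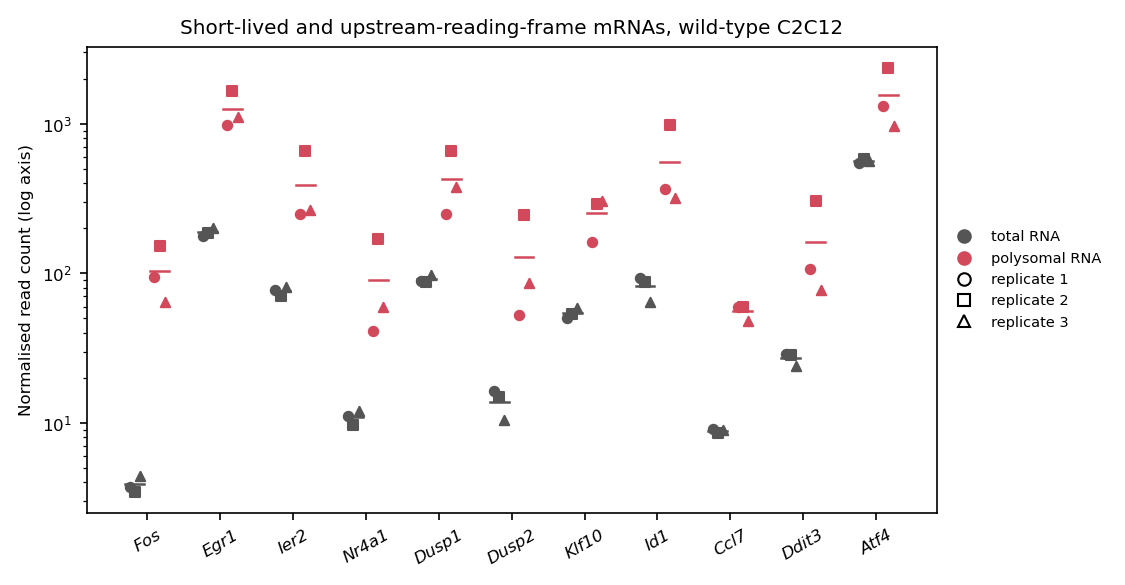
Points are normalised read counts on a log axis of 11 short-lived or upstream-reading-frame mRNAs in the 3 total (grey) and 3 polysomal (red) libraries, with a bar at each group's mean. All polysomal points lie above all total points of the same gene, and polysomal replicate 2 is the highest for 9 of the 11, Klf10 and Ccl7 being the others. The genes shown were picked from the called ones, some after their values were seen. Their separation therefore describes these genes and not their lists.

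Promoter sequence was read for this list because many of its members are textbook targets of serum response factor, which binds the CArG box. RefSeq windows from 250 bases before to 50 bases after the start were found for 43 of the 57 genes on GRCm38.p6. Of these 43 genes 19 were called higher, so only 19 of the list's 28 higher genes could be searched. A CArG box, searched on both strands, lay in those of 3 genes (6.98%), Dusp5, Egr2 and Zfp36, against 1.81% of all 27025 genes with a window, and all 3 were called higher here. The cyclic AMP response sequence TGACGTCA, which reads alike on both strands, lay in those of Dusp1, Maff and Plk2 (6.98% against 2.03% of all genes), of which Dusp1 was called higher. The 120 bases before the start of the 3 genes with a CArG box are printed 5′ to 3′ on the gene's strand, with the CArG boxes in capitals. They lie at chr19:53529025-53529144 (plus strand) for Dusp5, chr10:67537749-67537868 (plus strand) for a start site of Egr2 and chr7:28379229-28379348 (minus strand) for Zfp36.
Dusp5: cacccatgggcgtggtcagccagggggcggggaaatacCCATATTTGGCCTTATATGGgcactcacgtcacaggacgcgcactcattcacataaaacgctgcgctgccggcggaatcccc
Egr2: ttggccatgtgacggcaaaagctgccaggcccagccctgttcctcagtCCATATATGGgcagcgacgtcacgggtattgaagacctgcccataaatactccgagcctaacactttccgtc
Zfp36: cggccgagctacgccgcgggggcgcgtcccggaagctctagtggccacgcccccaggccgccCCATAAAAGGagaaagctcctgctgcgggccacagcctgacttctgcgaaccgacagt
Dusp5 holds a pair of adjoining boxes that begin 82 and 72 bases before the start, Egr2 a box at 72 and Zfp36 a box at 58. Egr2 read 21.5, 21.1 and 25.3 in total and 38.2, 70.9 and 38.4 in polysomal RNA (1.03 ± 0.27, adjusted p = 0.0349), and Dusp5 read 70.2, 71 and 84.4 against 105, 213 and 157 (adjusted p = 0.0354). A match of letters is a description and no measured binding.

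Enzymes of central metabolism were lower where called. Glycolysis genes were lower for 10 of 31 and higher for 0 (median −0.56). Hexokinase 1 (Hk1), the entry enzyme, read 375, 364 and 450 in total and 132, 113 and 138 in polysomal RNA (−1.62 ± 0.18, adjusted p = 0.00203). The phosphofructokinase Pfkp and the pyruvate dehydrogenase kinases Pdk2 and Pdk1 fell by 1.33, 1.32 and 1.11. Pdk1 was not called with the length trend removed (−0.77, adjusted p = 0.0542). Pyruvate kinase (Pkm), at −0.56 (adjusted p = 0.0766), and lactate dehydrogenase (Ldha), at 0.14 (adjusted p = 0.633), did not pass. Citric acid cycle and pyruvate dehydrogenase genes were lower for 7 of 28 and higher for 0 (median −0.44), with Pcx at −1.79, Idh1 at −1.67, and Ogdh and the citrate lyase Acly at −1.57 each. Ogdh read 343, 348 and 416 against 120, 98 and 160. Cholesterol genes were lower for 6 of 26 and higher for 0 (median −0.46). The synthesis enzymes Nsdhl, Fdps and Lss fell by 0.91, 0.87 and 0.80, of which Lss did not pass with the length trend removed (−0.19, adjusted p = 0.488). Without total replicate 1, 2 or 3 the lower counts were 2 each for glycolysis, 3 each for the citric acid cycle and 0 each for cholesterol. Without polysomal replicate 2 they were 16, 11 and 14.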

How the data were processed

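RNA of wild-type C2C12 myoblasts was sequenced as 3 total and 3 polysomal libraries. Per the labels, Trizol was used to extract both RNAs, libraries were of a standard Illumina kind, and no selection of poly(A) RNA or removal of ribosomal RNA is named. The submitters' processing notes name the mm10 build and the tools edgeR, HTSeq and STAR, with no versions or roles. The values the authors deposited are a signal, here called a normalised read count. Of them 100% of values were whole reads times 1 factor per library, within 0.001 reads, although the files are named as holding CPM, the unit the planned tests assumed. The lowest of all genes' highest values was 1.004. The authors' log2 fold changes and FDR values were not used.

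Changes were tested with limma 3.58.1 (R 4.3.3, mean-variance trend) on log2 of the value plus 1 over all 13331 genes, adjusted by Benjamini and Hochberg's method and called at 0.05. Adding 1 understates changes of low genes. The method was tested on simulated data with the same spread in every library and no length trend. That test cannot show how the method does on libraries as unlike as the polysomal ones. Removing the length trend subtracted a smooth curve of each library's change on log gene length. Alternatives were other pseudocounts, a filter on low values, other scalings, library weights, a replicate block, edgeR 4.0.16 and DESeq2 1.42.0 on the recovered reads, and leaving out each replicate. Of the gene IDs, 13128 matched RefSeq on GRCm38.p6, which gave coordinates. Near-identical copies, such as histone genes and pseudogenes, have uncertain levels.

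The comparison and the gene lists were chosen with earlier results of these data known. Genes named are the 12 largest called changes in each direction with groups that do not overlap and a mean of at least 10 in the higher group, and in each list up to 4 called members in each direction plus its best known genes. Ier2, Dusp1, Klf10, Ccl7, Dusp5, Egr2, Zfp36, Mdm2, Itgav, Tln1, Id2, Id3, Dusp6, Pomt1, Pomt2, Pomgnt1, M6pr, Zfp598, Maff and Plk2 were chosen after their values were seen. Classes by protein sequence were planned and not run. Some genes that this rule names are not reported here.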

Additional observations from a re-analysis of the deposited data

How the results depend on the processing

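The counts of 1060 higher and 1686 lower genes came to 1052 and 1649 with a pseudocount of 0.25, 1059 and 1780 with 5, 1101 and 1705 with the filter on low values, 1084 and 1730 under median scaling, 1392 and 1653 under quantile normalization, 1282 and 1321 without the ribosomal RNA gene models and 1236 and 1604 by edgeR. With library weights they were 4090 and 4096, from an estimate that stopped before it converged, and with DESeq2 2109 and 2255. Leaving out 1 replicate gave 112 to 2776 higher and 491 to 3047 lower genes, with the lowest counts without total replicate 3 and the highest without polysomal replicate 2; with fewer libraries the fit also has less to estimate the spread from, and beyond that the cause was not tested. Of 237 named genes, 200 were called, and 100, 97 and 116 lost their call without total replicate 1, 2 or 3, 38 without polysomal replicate 1 and 13 with the length trend removed. Among named genes Ftl1, not called at 0.23, was called in the opposite direction at −0.54 with library weights.

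No label says whether the replicate numbers pair the samples. Deviations of same-numbered total and polysomal libraries from their group means correlated across genes at 0.197, −0.200 and −0.0674. Those of unlike-numbered libraries correlated at −0.292 to 0.238. Deviations from a mean of 3 libraries are not independent of each other, so these values cannot decide whether the samples are paired. With the replicate number as a block 715 genes were higher and 1255 lower, and 17 named genes lost their call. Classes of proteins by sequence were not run. Fold bounds end at the floor of 3 reads, so depth limits them. The log2 changes of the largest falls are limited by the 1 added to each value, which lies above that floor. Cacna1s, at least 27.7-fold lower by its bound, had a log2 change of −2.43.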

Other observations

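Families that share the start of a gene symbol, each with at least 40 genes, are read against 7.95% higher and 12.6% lower over all genes. Not all 16 such families are given. The largest shares higher were those of Hist genes, 17 of 43 (39.5%, median 0.95), and Mrpl genes, 16 of 48 (33.3%, median 0.69), with 0 lower in each. With the length trend removed these medians were 0.42 and 0.53. Eif genes had 12 of 56 higher (21.4%) and 4 lower, and Rps genes 12 of 62 (19.4%) and 1. Atp genes, mostly pumps and ATP synthase subunits, were lower for 21 of 59 (35.6%), with a median of −0.48. The Slc transporters were lower for 20 of 197 (10.2%) and higher for 4 (2.03%), with a median of −0.18. Zinc finger genes named Zfp had 26 of 301 higher (8.64%) and 8 lower (2.66%). Their median was 0.18, and 0.26 with the length trend removed, although it was −0.06 in polysomal replicate 2. Ccdc genes, named for coiled coils, had 15 of 87 higher (17.2%) and 7 lower (8.05%). Rab genes, small GTPases of membrane traffic, had 6 of 54 lower (11.1%), with a median of 0.07. The Usp deubiquitinases had 6 of 45 lower (13.3%) and 1 higher (2.22%), with a median of −0.39, which was −0.09 with the length trend removed.

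Long non-coding RNAs were higher for 40 of 324 (12.3%) and lower for 8 (2.47%), with a median of 0.34 that was 0.12 with the length trend removed. Pseudogenes were higher for 73 of 1053 (6.93%) and lower for 20 (1.90%), with a median of 0.29 that became −0.14. Of 11648 protein-coding genes 928 were higher (7.97%) and 1645 lower (14.1%), with a median of −0.05.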
